A study of Saccharomyces cerevisiae with 4 samples.

Results

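These results cover the ChIP-nexus peaks of Cbf1 and Pho4 whose summit lay within 25 kb of the centre of a centromere on chromosomes I to XIII of Saccharomyces cerevisiae, wherever a peak list reached that centromere. The rule used position alone and no measured value, and it took 433 of the 6744 peaks in the 4 lists. Of these, 76 and 110 came from Cbf1 replicates 1 and 2, and 135 and 112 came from Pho4 replicates 1 and 2. The Cbf1 libraries came from the W303 strain Z1497, with CBF1::9myc::TRP1, and the Pho4 libraries from the W303 strain Z1441, with PHO4::9myc::TRP1. Each tagged protein therefore carried 9 Myc copies, and a Myc antibody was used for all 4 libraries. All cells grew in rich YPD medium at 25 °C and, per the protocol attached to every library, spent 2 h in phosphate-free medium before crosslinking. Both libraries of a factor came from 1 strain, and nothing in the labels says that they were separate cultures, so the spread between them may be technical. No untagged strain, input or phosphate-rich culture was used here.

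A budding yeast centromere is a short stretch of sequence with 3 conserved elements. Element I (CDEI) is a variant of the E-box that Cbf1 binds, element II (CDEII) is a run of A and T that lies against the single centromeric nucleosome, and element III (CDEIII) is bound by the CBF3 complex, which starts kinetochore assembly. Away from centromeres Cbf1 is known as an activator of sulfur metabolism genes. Pho4 is the activator of phosphate starvation genes and also binds the E-box CACGTG, and it has no known role in the kinetochore.

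Sequences are given from RefSeq, build R64 (the sacCer3 assembly of the reference strain S288C), from which W303 may differ at single bases. The first 3 are whole annotated centromeres, written from element I to element III. CEN13 is shown because a Cbf1 summit lay inside it, CEN6 because Pho4 had a peak beside it in both lists, and CEN7 because it carries the E-box and its Cbf1 peak was broken in 1 list. Capitals mark the core of element I and the CCG of element III.
CEN13, chrXIII:268031-268149 (+): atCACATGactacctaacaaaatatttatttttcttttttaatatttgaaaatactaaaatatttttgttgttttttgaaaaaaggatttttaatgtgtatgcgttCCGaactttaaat
CEN6, chrVI:148510-148627 (+): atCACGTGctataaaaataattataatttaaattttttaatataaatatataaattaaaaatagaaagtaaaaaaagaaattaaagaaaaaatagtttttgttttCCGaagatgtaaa
CEN7, chrVII:496920-497038 (-): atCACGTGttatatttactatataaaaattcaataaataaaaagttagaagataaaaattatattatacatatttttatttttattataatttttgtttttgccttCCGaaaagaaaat

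The next 6 are windows around the E-box nearest the summit at promoters that lead the results below, read on the strand given in brackets. VTC2, MNN1 and EFB1 held the highest Pho4 peaks of the 8 centromeres that all lists reach. CYS3 and MET14 are sulfur genes, and the intergenic sequence between PAN1 and EGH1 held a high Cbf1 peak with no Pho4 peak. Capitals mark CACGTG, or CATGTG at PAN1/EGH1, which reads CACATG on the other strand.
VTC2, chrVI:131451-131551 (+): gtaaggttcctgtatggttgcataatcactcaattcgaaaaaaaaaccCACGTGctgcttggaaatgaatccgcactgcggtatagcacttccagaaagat
MNN1, chrV:153116-153216 (+): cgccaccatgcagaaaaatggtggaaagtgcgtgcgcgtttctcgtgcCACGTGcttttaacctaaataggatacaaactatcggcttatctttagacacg
EFB1, chrI:141817-141917 (+): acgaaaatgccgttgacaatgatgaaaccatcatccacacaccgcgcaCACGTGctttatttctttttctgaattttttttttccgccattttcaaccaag
CYS3, chrI:130535-130635 (+): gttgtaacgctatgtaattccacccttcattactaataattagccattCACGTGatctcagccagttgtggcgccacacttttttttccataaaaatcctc
MET14, chrXI:439560-439660 (-): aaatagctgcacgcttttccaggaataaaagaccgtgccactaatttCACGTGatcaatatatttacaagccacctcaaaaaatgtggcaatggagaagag
PAN1/EGH1, chrIX:370021-370121 (+): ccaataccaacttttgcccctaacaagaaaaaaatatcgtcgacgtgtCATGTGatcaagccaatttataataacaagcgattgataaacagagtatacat

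The lists covered unequal lengths of the genome. Cbf1 replicate 1 ended on chromosome VII after 8 of the 13 centromeres, while the other 3 lists reached all 13. Libraries were therefore compared in the sequence reached by all 4 lists, which was 41.7% of the nuclear genome and held 8 centromeres. There, the rule took 76, 68, 86 and 77 peaks for Cbf1 replicates 1 and 2 and Pho4 replicates 1 and 2, and the rest of the sequence held 844, 785, 1019 and 864. The lists carry no read totals. The authors' fold enrichment is summit height over local background in the same library, and with the authors' p-value it gives both numbers for 74 of 76, 64 of 68, 79 of 86 and 72 of 77 of these peaks, leaving out the strongest. The median summit height of the near-centromere peaks was 73 and 57 reads for Cbf1 and 67 and 37.5 reads for Pho4, against 63, 48, 68 and 42 reads in the rest. Across the threshold of the rule, the last peak inside lay 24938 bp from its centre with a fold of 9.15, and the first outside lay 25016 bp away with a fold of 3.55, both in Cbf1 replicate 2. Intervals on shares are 95% Wilson intervals over peaks or features and cover counting error only.

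Over the whole 25 kb, peaks were about as dense as elsewhere. Cbf1 had 19.0 and 17.0 peaks per 100 kb near centromeres, against 18.2 and 16.9 in the rest. Pho4 had 21.5 and 19.2 peaks per 100 kb near centromeres, against 22.0 and 18.6 in the rest. The log2 ratio of near to rest was 0.03 ± 0.04 for Cbf1 and 0.01 ± 0.06 for Pho4 (SD, n = 2 each). The difference of 0.03 was within the spread between libraries, and the values of the factors overlapped (two-sided exact permutation p = 0.667, with 0.333 the smallest that 4 libraries allow). It turned to -0.15 without peaks within 1 kb of a centre and to -0.16 for peaks within 10 kb.

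Width set the factors apart. Cbf1 peaks had a median width of 323 and 414 bp near centromeres and 299 and 300.0 bp in the rest. Pho4 peaks had a median width of 279 and 266 bp near centromeres and 286 and 274.5 bp in the rest. Both Cbf1 lists were thus wider near centromeres and both Pho4 lists slightly narrower. The log2 ratio of near to rest was 0.29 ± 0.25 for Cbf1 and -0.04 ± 0.01 for Pho4 (SD, n = 2 each), a difference of 0.33 with no overlap between the factors (exact permutation p = 0.333, two-sided and the lowest attainable). Much of it sat at the centromere. Without peaks within 1 kb of a centre the difference was 0.15, with overlapping factors. For peaks 5 to 25 kb away it was 0.03, again with overlapping factors (exact permutation p = 1). Over the whole 25 kb, the difference was 0.51 without Cbf1 replicate 1 and 0.15 without Cbf1 replicate 2.

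Fold moved less. The median authors' fold was 2.19 and 3.01 for Cbf1 near centromeres and 2.17 and 2.79 in the rest. For Pho4 it was 2.82 and 3.22 near centromeres and 3.11 and 3.44 in the rest. The log2 ratio of near to rest was 0.06 ± 0.07 for Cbf1 and -0.12 ± 0.03 for Pho4 (SD, n = 2 each). The difference of 0.18 had no overlap between the factors (exact permutation p = 0.333, two-sided and the lowest attainable), and it was 0.08 for peaks 5 to 25 kb away and 0.55 for peaks within 10 kb. Folds of different lists are not on 1 scale, so each ratio was taken within its list.

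**Figure D1:**
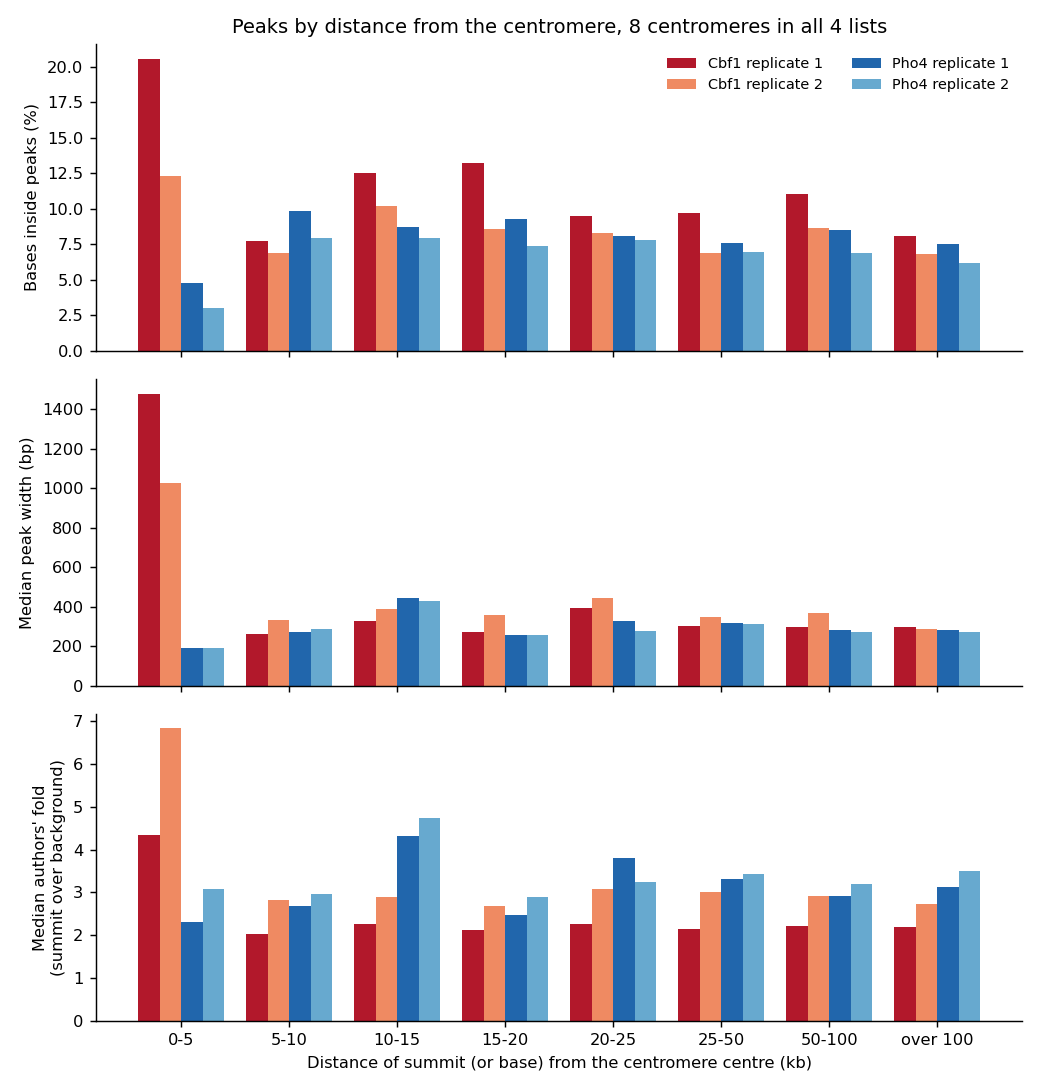
Bases inside peaks (percent, top), median peak width (bp, middle) and median authors' fold (bottom) by distance from the centromere centre in kb, for each of the 4 lists over the 8 centromeres that all lists reach. In the innermost 5 kb the Cbf1 bars stand above their own bars at every other distance in all 3 panels, with median widths of 1479.5 and 1026 bp, while the Pho4 bars there show the lowest coverage and width, with median widths of 190.0 and 192 bp.

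The distance profile changed most in the first 5 kb. Within 1 kb of a centre Cbf1 had 10 and 9 peaks, and Pho4 had 2 and 1. These Cbf1 peaks had a median width of 1479.5 and 1069 bp, against 190.0 and 180.0 bp for Pho4. Counting also peaks that reach in from summits farther out, Cbf1 peaks covered 88.2% and 57.8% of the bases within 1 kb. Pho4 peaks, counted alike, covered 5.28% and 3.54%. Beyond 25 kb the lists covered 8.72%, 7.15%, 7.71% and 6.36% of bases, in the order Cbf1 replicates 1 and 2, then Pho4 replicates 1 and 2. The median fold within 1 kb was 4.35 and 6.83 for Cbf1 and 3.59 and 3.57 for Pho4. The median height of the Cbf1 summits there was 282 and 207 reads, on a local background of 72.8 and 28.6 reads.

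Just outside, Cbf1 peaks were sparse. From 1 to 5 kb each Cbf1 list had 2 peaks, or 3.125 per 100 kb, and Pho4 had 12 and 8 peaks, or 18.75 and 12.5 per 100 kb. The Cbf1 peaks at this distance were at the MNN1 promoter on chromosome V and at a weak site on chromosome II, with folds of 1.46 and 1.82. From 3 to 5 kb neither Cbf1 list had a summit or a single covered base at any of the 8 centromeres, while Pho4 had 5 and 2 peaks there. The local background of Cbf1 peaks within 5 kb had a median of 79.3 and 29.7 reads, against 27.8 and 17.6 reads beyond 25 kb. For Pho4 the same medians were 20.4 and 10.1 reads within 5 kb and 21.8 and 11.7 reads beyond 25 kb. A higher background raises the height that a peak must reach, and its part in the sparse Cbf1 calls was not tested.

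From 5 to 25 kb densities and folds were closer to the rest of the sequence than within 5 kb. Cbf1 had 20.0 and 17.8 peaks per 100 kb there, and Pho4 had 22.5 and 21.2. Median widths were 285 and 385 bp for Cbf1, against 299 and 300 bp in the rest. For Pho4 they were 316 and 290.5 bp, against 286 and 274.5 bp in the rest. Cbf1 replicate 2 peaks thus stayed wider at this distance. Median folds were 2.12 and 2.92 for Cbf1 and 3.02 and 3.26 for Pho4. Along the 5 kb steps the Pho4 median fold was highest at 10 to 15 kb, at 4.31 and 4.73, over 16 and 13 peaks. No such step stood out in either Cbf1 list outside the innermost 5 kb.

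**Figure D2:**
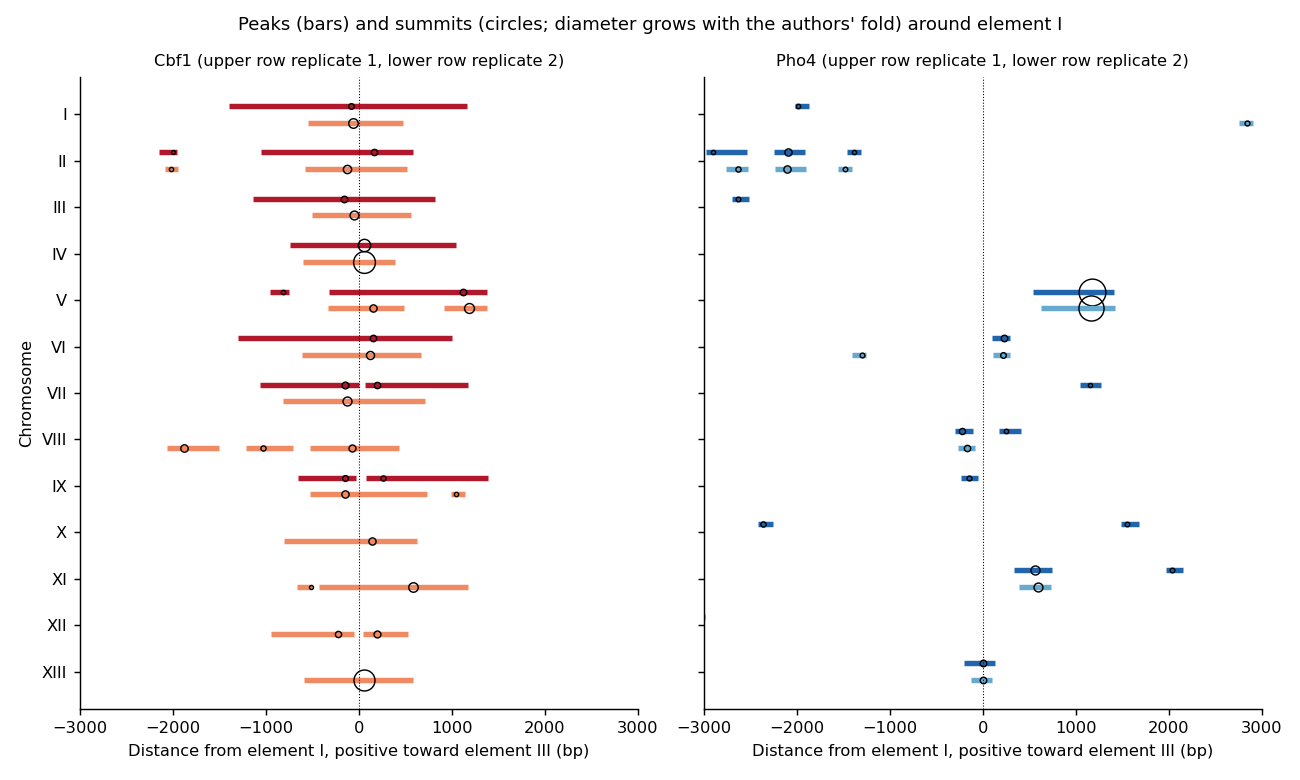
Peaks around element I of each centromere, with distance in bp along the axis (positive toward element III), 1 pair of rows per chromosome, bars for peak intervals and circles for summits whose diameter grows with the authors' fold. Cbf1 bars (left) span element I at every centromere reached or stop within 50 bp of it, and the largest Cbf1 circles are at IV and XIII, whereas Pho4 bars (right) lie within 100 bp of the centromere at VI, VIII, IX and XIII alone, with the MNN1 promoter peak as the largest circles at V.

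A Cbf1 peak lay over each of the 8 centromeres in both lists, counting a peak within 100 bp of the annotated centromere. Pho4 had 2 and 1, and the difference of 6.5 had no overlap between the factors (exact permutation p = 0.333, two-sided and the lowest attainable). Taking all peaks over a centromere together, the Cbf1 stretch ran over 1640 to 2565 bp in replicate 1, with a median of 2003 bp. In replicate 2 it ran over 819 to 1521 bp, with a median of 1079 bp. Replicate 1 was wider at 8 of 8 centromeres, while the median widths of the rest were alike, at 299 and 300 bp. Replicate 2 had the higher fold at 8 of 8, but its median fold was also higher in the rest, at 2.79 against 2.17. Width and fold of these peaks thus depended on the library, and the fold order was not particular to centromeres. By fold, the strongest peak at a centromere ranked above 80.9% to 98.7% of the Cbf1 replicate 1 peaks and above 81.2% to 98.9% of the Cbf1 replicate 2 peaks.

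CEN4 stood apart from the other centromeres. Its Cbf1 peaks had folds of 11.8 and 23.5, while the next centromere of the 8 had 5.02 in replicate 1 and 8.42 in replicate 2. Both summits fell on the same base, inside the annotated centromere. CEN13, which only Cbf1 replicate 2 reaches, had a fold of 22.5 with its summit at 268089, again inside the centromere and 53.5 bp from the middle of element I in the sequence printed above. At the other centromeres the Cbf1 summit lay outside the annotated centromere, by 45 to 1004 bp in replicate 1 and by 8 to 473 bp over the 13 centromeres of replicate 2. It lay on the element I side at 4 and 6 centromeres and on the element III side at 3 and 5. The farthest, 1004 bp in replicate 1, was CEN5, whose peak ran on into the MNN1 promoter and had its summit there.

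Some of these peaks were broken over the centromere itself. In Cbf1 replicate 1 CEN7 had 2 peaks with a gap of 67 bp that lay wholly inside the centromere, and CEN9 had 2 peaks with a gap of 102 bp, 82 bp of it inside. In Cbf1 replicate 2 both centromeres had 1 unbroken peak, and CEN12 was split by a gap of 92 bp, 52 bp of it inside. The elements II of the 13 centromeres are 86.9% to 97.6% A and T, and how well reads map there was not tested.

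The core of element I reads CACGTG at 6 of the 13 centromeres (V, VI, VII, IX, X and XII) and CACATG, on one strand or the other, at 7 (I, II, III, IV, VIII, XI and XIII). Every centromere reached had a Cbf1 peak with either core. In replicate 1 the highest fold per centromere had a median of 4.48 over 4 centromeres with CACATG and 4.53 over 4 with CACGTG. In replicate 2 it had a median of 8.32 over 7 centromeres with CACATG and 5.59 over 6 with CACGTG, with ranges of 5.22 to 23.5 and 5.13 to 7.66. The 8.32 is the CEN11 value, whose summit lay in the MET14 promoter 473 bp outside the centromere, and the CEN5 value of 4.54 in replicate 1 had its summit in the MNN1 promoter. The ranges overlapped in both lists, and centromeres of 1 library are not replicates, so no test was made. Although CACGTG lies in 4 of the 8 centromeres that all lists reach, no summit of any list lay within 50 bp of it.

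Pho4 had small peaks at 4 of the 13 centromeres. At CEN6 the peaks chrVI:148620-148809 and chrVI:148629-148808 had folds of 4.64 and 3.57 and summits 117 and 103 bp beyond the element III end. At CEN8 the highest folds were 4.16 and 4.40, and at CEN9 replicate 1 alone had a peak, with a fold of 2.54. At CEN13 the folds were 4.68 and 4.67, and both summits fell on 268035, the middle of element I to within 0.5 bp, where the core is CACATG. The widths of single Pho4 peaks at centromeres were 180.0 to 338 bp. With no untagged library used here, signal that does not depend on the tag cannot be told apart from these low peaks.

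**Figure D3:**
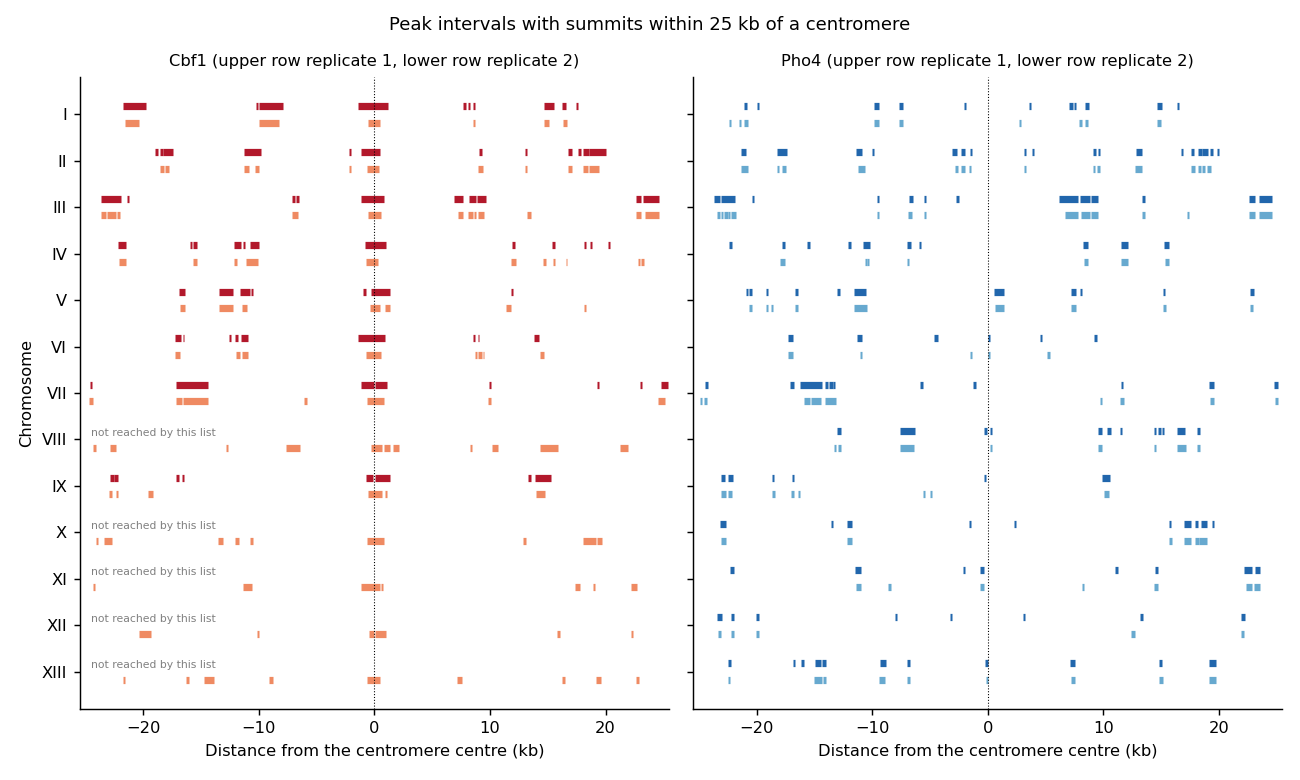
Peak intervals whose summits lay within 25 kb of a centromere, by signed distance from the centre in kb, 1 pair of rows per chromosome, Cbf1 on the left and Pho4 on the right. The column of Cbf1 bars at 0 has empty flanks out to about 5 kb on most chromosomes, Pho4 has no such column, and 5 chromosomes were not reached by Cbf1 replicate 1.

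The E-box was less common around centromeres, in the sequence and under the peaks. Near centromeres there were 21 CACGTG sites, or 5.25 per 100 kb, against 8.15 per 100 kb in the rest. CACGTG had its centre within 50 bp of 10.5% and 11.8% of the Cbf1 summits near centromeres, against 16.5% and 22.3% in the rest. For Pho4 the shares were 11.6% and 12.99% near centromeres, against 20.8% and 23.3% in the rest. The share was lower near centromeres in all 4 lists. The near interval for Cbf1 replicate 1 was 5.43% to 19.4% and the rest interval 14.1% to 19.1%, and near and rest intervals overlapped in each of the other 3 lists too. Of all positions, 0.525% near centromeres and 0.798% in the rest had CACGTG within 50 bp, counted on both strands at once because the word is its own reverse complement. Near centromeres the Cbf1 minus Pho4 difference was -1.16 percentage points, within the spread between libraries (two-sided exact permutation p = 0.667).

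In each list the share of these sites with a summit was below that of all sites, within counting error. The 21 include the 4 sites in centromeres, none with a summit within 50 bp, and the direction without them was not tested. For Cbf1, 8 and 8 of the 21 sites had a summit within 50 bp, against 39.1% and 47.9% of all 399 sites in the compared sequence. For Pho4 it was 10 and 10 of 21, against 57.1% and 54.6% of all sites. The intervals on the near shares, 20.8% to 59.1% for Cbf1 and 28.3% to 67.6% for Pho4, held the share of all sites in every list. Of the 21 sites, 6 had a summit in all 4 lists, against 20.3% of all 399 sites, and 10 had one in none, against 24.1%. Sites without a summit in any list thus made up a larger share near centromeres, and no interval was computed for this share. The 4 sites in centromeres were among the 10. Both Cbf1 lists had a peak over each of these 4 centromeres, but its summit lay more than 50 bp from the site. Both Pho4 lists but no Cbf1 list had a summit at 2 sites, against 15.3% of all sites. Both Cbf1 lists but no Pho4 list had a summit at 1, on chromosome IV at 461802, against 9.02% of all sites. By the base beside the core, 9 sites had no T directly 5′ of CACGTG on either strand. Summits lay near 4 and 4 of these for Cbf1 and 7 and 7 for Pho4. The other 12 had a T on at least 1 strand, and summits lay near 4 and 4 of them for Cbf1 and 3 and 3 for Pho4. All 4 centromeric sites belong to the 12. Over all 399 sites, 170 had no T, with summits near 42 and 59 for Cbf1 and 131 and 127 for Pho4. The 182 with a T on 1 strand had summits near 84 and 98 for Cbf1 and 89 and 81 for Pho4, and the 47 with a T on both strands had 30 and 34 for Cbf1 and 8 and 10 for Pho4. The Pho4 counts near centromeres thus leaned toward sites without a T, as over all sites. The Cbf1 counts near centromeres did not lean toward sites with one. They score the 4 centromeric sites as without a summit, although Cbf1 peaks lay over those centromeres. The lean without these 4 sites was not tested.

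Promoters, taken as the 500 bp before the start of each protein-coding gene, held 36.8% and 39.7% of the Cbf1 summits near centromeres and 52.3% and 51.9% of the Pho4 summits. The difference of -13.9 percentage points had no overlap between the factors (exact permutation p = 0.333, two-sided and the lowest attainable), and in the rest of the sequence it was -16.6 points. Of 206 promoters near centromeres, 32 and 29 held a Cbf1 summit, against 14.8% and 13.2% of all 2507 promoters compared. For Pho4, 57 and 50 of the 206 did, against 25.6% and 22.8%. Near shares of 15.5% and 14.1% for Cbf1 and 27.7% and 24.3% for Pho4 were thus close to those of all promoters.

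tRNA genes, which many ChIP assays find occupied in yeast, were denser near centromeres, at 4.25 per 100 kb against 2.35 in the rest. Peaks that overlapped one made up 13.2% and 19.1% of the Cbf1 peaks near centromeres, against 6.99% and 9.68% in the rest. For Pho4 they made up 12.8% and 9.09% near centromeres, against 6.77% and 3.70% in the rest. Gene by gene the shares stayed near the background. Of 17 tRNA genes near centromeres, 10 and 13 had a Cbf1 peak, against 55.6% and 72.2% of all 126 compared, and 11 and 7 had a Pho4 peak, against 64.3% and 31.0%. Without peaks at noncoding RNA genes and repeats, Cbf1 had 15.0 and 12.7 peaks per 100 kb near centromeres, against 16.2 and 14.6 in the rest.

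Most near-centromere peaks recurred in the other library of the same factor. By an overlap of at least 1 bp, 71.1% and 85.3% of the Cbf1 peaks and 69.8% and 83.1% of the Pho4 peaks did, against 64.6% and 72.2% for Cbf1 and 71.4% and 85.0% for Pho4 in the rest. A peak of the other factor overlapped 63.2% and 70.6% of the Cbf1 peaks and 60.5% and 62.3% of the Pho4 peaks, against 57.9% and 60.0% for Cbf1 and 56.1% and 55.8% for Pho4 in the rest. The Cbf1 minus Pho4 difference of 5.47 percentage points had no overlap between the factors (exact permutation p = 0.333, two-sided and the lowest attainable), but it turned to -4.90 points with lists of equal length and the rest of the sequence had a difference of 3.01 points. It was 1.76 points without Cbf1 replicate 2 and 9.19 without Cbf1 replicate 1. At an overlap of 50% of both peaks it was 0.80 points, and with the upper 50% of peaks 1.16 points, with overlapping factors in both (exact permutation p = 1). Peaks found in both libraries of a factor numbered 58 for Cbf1 and 64 for Pho4, and single peaks below come from these sets.

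**Figure D4:**
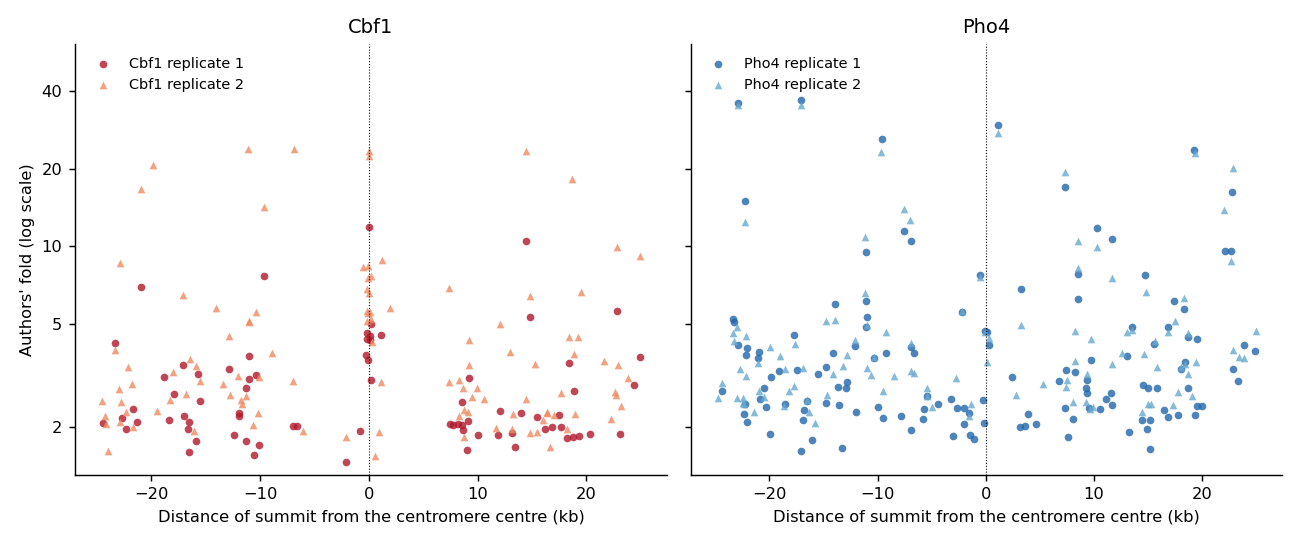
The authors' fold (log axis) of each near-centromere peak against its signed distance from the centromere centre in kb, Cbf1 on the left and Pho4 on the right, with circles for replicate 1 and triangles for replicate 2. Cbf1 points gather at 0 and thin out beside it. The highest Pho4 points lie 17.1 kb from CEN6, at 36.8 and 35.5, and 22.9 kb from CEN10, at 35.9 and 35.3. Those of MNN1, at 29.6 and 27.6, lie 1.155 kb from the centre of CEN5.

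Over the 8 centromeres that all lists reach, the 5 highest Cbf1 peaks by mean fold rank were CEN4 and 4 promoters. Second was the sequence between PAN1, which encodes an endocytosis scaffold of the actin patch, and EGH1, which encodes a steryl glucosidase. The peaks, chrIX:369590-371009 and chrIX:369662-370419, had folds of 10.5 and 23.5 and summits 211 and 214 bp upstream of PAN1, and no Pho4 peak overlapped them. CACGTG was not within 50 bp of the summit, and the CATGTG printed above lay 47.5 bp from the replicate 1 summit. The replicate 2 summit, at 370122, lay slightly farther from it, outside 50 bp. Such a core, CACATG on either strand, lay within 50 bp of 3.29% of all positions near centromeres and of 5.26% and 7.35% of the Cbf1 summits there.

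CYS3, the gene of cystathionine gamma-lyase in cysteine synthesis, came next, with Cbf1 folds of 6.96 and 16.7 and Pho4 folds of 3.90 and 2.74. Its Cbf1 peaks were also wide, at 1981 and 1209 bp, against 257 and 302 bp for Pho4. Between EFB1, which encodes a translation elongation factor subunit, and SSA1, which encodes an Hsp70 chaperone, the Cbf1 folds were 7.64 and 14.2 and the Pho4 folds 26.2 and 23.2. Between ADP1, which encodes a putative membrane transporter, and the glycolytic gene PGK1, the Cbf1 folds were 5.61 and 9.91 and the Pho4 folds 16.3 and 20.1. At both of these shared promoter regions the authors' fold was higher in the Pho4 lists, and the scales of the lists differ. Among Cbf1 peaks without a Pho4 peak in either list, the third after CEN4 and PAN1/EGH1 was CEN7, with folds of 5.02 and 7.66.

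The widest Cbf1 peaks near the 8 centromeres were not all over one. By mean width over both lists the widest lay in the body of PMA1, the gene of the plasma membrane proton pump, 15.9 kb from CEN7, with widths of 2782 and 2176 bp and folds of only 3.20 and 3.44. The EFB1 peak had widths of 2108 and 1682 bp, and the CEN1 peak 2565 and 1026 bp. Of the 20 widest Cbf1 peaks of the compared sequence, 3 in replicate 1 and 2 in replicate 2 lay over a centromere, and none of the 20 widest in either Pho4 list did. By the same mean, the widest Pho4 peaks near the 8 centromeres were in PMA1, with widths of 1838 and 942 bp, and in CIT2, the gene of peroxisomal citrate synthase, with widths of 1594 and 1064 bp. In replicate 2 alone the widest there was a peak of 1134 bp whose summit lay 23888 bp from the centre of CEN3.

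The 5 highest Pho4 peaks of the same 8 centromeres were all promoter peaks. VTC2 encodes a subunit of the vacuolar complex that makes polyphosphate, and its peaks, chrVI:131282-131747 and chrVI:131304-131719, had Pho4 folds of 36.8 and 35.5. Cbf1 folds at the same place were 3.48 and 6.46. MNN1, which encodes a Golgi mannosyltransferase, starts 1.52 kb from the centre of CEN5, and its peaks, chrV:152536-153400 and chrV:152615-153419, had Pho4 folds of 29.6 and 27.6. The Cbf1 folds there were 4.54 and 8.83, and in Cbf1 replicate 1 the CEN5 and MNN1 signals formed 1 peak of 1708 bp. After EFB1/SSA1 and ADP1/PGK1 came TIR3, the gene of a cell wall mannoprotein, with Pho4 folds of 14.9 and 12.4 and Cbf1 folds of 1.96 and 2.28. TIR3 was the only one of the 5 without CACGTG within 50 bp of its summit. At the other 5 centromeres 3 Pho4 peaks were higher than TIR3 in both lists, and they were picked out after their values were seen. VTC4 is described below. The others lay on chromosome XIII with CACGTG at the summit, 19.3 kb from the centre, upstream of the hexose transporter gene HXT2, with folds of 23.6 and 23.1, and 7.35 kb from it, in MVP1, with folds of 17.0 and 19.5.

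Pho4 peaks without a Cbf1 peak in either list were led by 2 inside genes. One lay in VPS8, which encodes a subunit of an endosomal tethering complex, with folds of 11.5 and 13.9. Another lay in the coding sequence of PAN1, with folds of 11.8 and 9.97. Both had CACGTG at the summit. The Cbf1 peak upstream of PAN1 did not overlap this one, so each factor had its own peak at this gene. The third, upstream of MAF1, which encodes a repressor of RNA polymerase III, had folds of 6.24 and 8.22 and no CACGTG.

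Of the genes these factors are known for, 2 of 18 listed phosphate genes and 3 of 19 listed sulfur genes start within 25 kb of a centromere, against 5.71% of all nuclear protein-coding genes. VTC4, another subunit of the polyphosphate complex, starts 23.0 kb from the centre of CEN10, and its Pho4 folds were 35.9 and 35.3 and its Cbf1 replicate 2 fold was 8.66. VTC2 is described above. MET14, the gene of adenylylsulfate kinase, starts 0.816 kb from the centre of CEN11. In Cbf1 replicate 2, the only Cbf1 list to reach it, 1 peak of 1605 bp spanned CEN11 and the MET14 promoter, with a fold of 8.32 and its summit in the promoter. The Pho4 peaks there, of 404 and 349 bp, had folds of 7.76 and 7.60 and stopped short of the centromere. MET3, the gene of ATP sulfurylase, had a Cbf1 replicate 2 fold of 6.63 and a Pho4 replicate 1 fold of 2.40, and Pho4 replicate 2 had no summit in its promoter. MET14 and CYS3 were thus the sulfur genes with a promoter peak in every list that reaches them.

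TRP1, a tryptophan synthesis gene that also marks the tag cassette in both strains, starts 12.0 kb from the centre of CEN4. Cbf1 summits lay at the start of the gene, with folds of 2.30 and 4.98, within 50 bp of the T-flanked CACGTG site at 461802. Pho4 summits lay 365 and 339 bp upstream, with folds of 10.7 and 7.53. Where the marker copy beside the tag has the sequence of the native gene, reads from them cannot be told apart. Whether it has that sequence was not tested.

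The 5 centromeres beyond the shared sequence (VIII and X to XIII) add 42 Cbf1 replicate 2 peaks and 49 and 35 Pho4 peaks. Cbf1 replicate 2 had 16.8 peaks per 100 kb near them, against 16.6 in the rest of those chromosomes. Pho4 had 19.6 and 14.0 near them, against 21.1 and 17.1 in the rest, lower in both lists. Cbf1 replicate 2 had a peak over all 5, and Pho4 had 2 and 2. There the Cbf1 replicate 2 median width was 448 bp near centromeres and 295 bp in the rest of those chromosomes, and its median fold was 3.06 near centromeres and 2.61 in the rest. For Pho4 the median widths were 278 and 310.0 bp near centromeres and 291 and 292 bp in the rest. The Pho4 median folds were 3.12 and 4.36 near centromeres and 3.16 and 3.72 in the rest, so replicate 2 was higher near these 5 centromeres while both lists were lower near the other 8. The highest Cbf1 replicate 2 peak, with a fold of 23.9, had its summit in SHU1, which encodes a recombination repair protein, upstream of MRP4, which encodes a mitochondrial ribosomal protein. The next, with a fold of 23.8, lay between LAC1, which encodes a ceramide synthase subunit, and CAP1, which encodes an actin capping protein subunit. CEN13 followed with 22.5. CACGTG lay within 50 bp of the SHU1 and CAP1 summits. Pho4 folds were 10.5 and 12.7 at SHU1 and 6.12 and 6.61 at CAP1.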

How the data were processed

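Peak lists in narrowPeak layout, 1 per library and not pooled, were analysed for 2 Cbf1 and 2 Pho4 ChIP-nexus libraries. The submitters' processing notes name cutadapt 1.8.1, Bowtie 1.1.2, SAMtools 1.3.1, bedtools, MACS2 2.1.1 and the build sacCer3. Neither the thresholds nor the use of a control is stated, being not given in the sources used here. Columns deposited by the authors hold peak positions, a score, a fold (the ratio of summit height to local background), −log10 p and −log10 q. All peaks fitted within the chromosome lengths of R64.

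Here, summit heights and backgrounds were solved from fold and −log10 p (up to 250, tolerance 0.001), giving a whole number for 99.0% to 99.4% of the peaks within that limit. Densities, medians and shares were computed per library with Python 3.11.15, numpy 2.4.6, pandas 2.3.3 and scipy 1.17.1. The factors were compared by two-sided exact permutation of the factor labels among the 4 libraries (6 assignments), since peaks are not replicates. The score column was not used in any test. Procedures were tested on simulated data.

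The named peaks are, for each factor, the 5 highest, the 3 highest without the other factor and the 3 widest, plus peaks at centromeres and at listed genes. In the 5 centromeres that Cbf1 replicate 1 does not reach, the 3 highest of Cbf1 replicate 2 are named. Members, lists and rules were chosen with earlier results of these data known. Alternatives changed the distance, the centre, the filters, the overlap and window sizes, the extent of the lists and the libraries kept. The distance class of 5 to 25 kb was chosen after seeing the data. Sequences are printed for 3 centromeres, and those of the others are not reported here.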

Additional observations from a re-analysis of the deposited data

Results flagged for a closer look

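The factors moved in opposite directions in 2 summaries of the near-centromere peaks. The log2 ratio of median width near centromeres to that in the rest was above 0 in both Cbf1 lists (mean 0.29) and below 0 in both Pho4 lists (mean -0.04), a difference of 0.33. The log2 ratio of the median authors' fold was above 0 in both Cbf1 lists (mean 0.06) and below 0 in both Pho4 lists (mean -0.12), a difference of 0.18. The exact permutation p was 0.333 for each, the smallest that 4 libraries allow. The Pho4 width ratio turned above 0 in 4 of 12 alternatives, so its direction was not settled. At the 5 further centromeres Pho4 replicate 2 was wider (310 against 292 bp) and higher in fold (4.36 against 3.72) near than in the rest. Pho4 replicate 1 was neither there.

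Peaks were also called outside the compared data. Pho4 replicate 2 was the only list to reach the centromeres of chromosomes XIV, XV and XVI. It had 32 peaks within 25 kb of them, split as 10, 12 and 10 in that order. Their median folds were 3.63, 3.48 and 3.16, and none of these peaks lay over a centromere. Whether peaks were denser there than on the rest of these chromosomes was not tested, so the count alone shows no excess near centromeres.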

How the results depend on the processing

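Of 177 recomputed values over 13 results, 153 had the sign of the reported value and 24 the opposite. The Cbf1 minus Pho4 differences in width (0.033 to 1.16), fold (0.076 to 0.55), promoter share and centromeres with a peak kept their sign under every alternative run. The overlap difference ran over -4.90 to 17.0 points and the CACGTG share difference over -5.70 to 0.967. The density difference turned to -0.16 with near set to 10 kb, -0.034 without noncoding RNA genes and repeats, -0.15 without peaks within 1 kb and -0.0072 for 5 to 25 kb, and ran over -0.013 to 0.066 with each library left out. The CACGTG share difference turned to 0.0493 points with near set to 50 kb, 0.309 without peaks within 1 kb and 0.967 with a window of 100 bp. The difference in overlap with the other factor turned to -4.90 points with equal list lengths. The density ratio, which is close to 0, turned sign in 3 of 12 settings for Cbf1 and 7 of 12 for Pho4, which also had -0.028 with near set to 50 kb and -0.030 with equal list lengths. The Pho4 width ratio turned sign in 4 of 12 settings, which are among the values below. Otherwise the log2 ratios of near to rest moved as follows. With near set to 10 kb, Cbf1 had -0.24 in density, 0.28 in fold and 0.87 in width, and Pho4 had -0.078, -0.27 and -0.29. With near set to 50 kb Pho4 had -0.046 in fold and 0.061 in width. With the upper 50% by −log10 q, Cbf1 had 0.28 in density, and Pho4 had -0.12 in density, -0.22 in fold and 0.13 in width. Without noncoding RNA genes and repeats, density was -0.15 for Cbf1 and -0.12 for Pho4, and Pho4 width -0.083. Without peaks within 1 kb, Cbf1 density was -0.11 and Pho4 width -0.0077. For 5 to 25 kb, density was 0.10 for Cbf1 and 0.11 for Pho4, and Pho4 had -0.060 in fold and 0.11 in width. Pho4 also had -0.059 in density and -0.034 in fold over whole lists, 0.0088 in width with equal list lengths, and -0.052 in width without chromosome ends. With each library left out, the ratios ran over 0.0056 to 0.061 (density), 0.012 to 0.11 (fold) and 0.11 to 0.46 (width) for Cbf1, and -0.032 to 0.047, -0.14 to -0.094 and -0.045 to -0.036 for Pho4. The cause of these moves was not tested. With replicate number as a block, the differences were the same (width 0.33, fold 0.18), with 0.5 the smallest exact permutation p of 2 pairs. The numbers do not pair the samples by any label, and same-numbered deviations correlated at 0.0652 over 323 loci with a peak in all 4 lists. Read totals are unknown, and the effect of depth on the calls was not tested.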
